A study of Mus musculus with 11 samples.

Results

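The genes described here are 10 transcription factor genes that act at the core of haematopoietic stem cell (HSC) identity: Mecom, Hlf, Gata2, Gfi1b, Tal1, Lmo2, Meis1, Runx1, Erg and Fli1. They were chosen by name, and all 10 were found among the 24064 genes of the gated files and the 23418 gene symbols of the unfractionated files. The libraries came from HSCs of wild-type C57BL/6 mice, taken from the liver at postnatal day 0. The sorted cells carried Sca1, cKit and CD150 and lacked CD48 and lineage markers. The FSC-A High group has 4 libraries of HSCs gated for high forward scatter area, a light-scatter reading commonly taken to reflect cell size. The FSC-A Low group has 3 libraries gated for low values, and the WT HSC group has 4 libraries for which no such gate is named. Each library was made with Smart-seq2, which amplifies whole cDNAs of a few cells, from a pool of 100 to 200 cells. Whether replicates are different animals is not given in the labels, and the p-values therefore cover only library-to-library spread, which may be technical.

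Several of these factors help to maintain HSCs, and some also act in the formation of blood lineages. Tal1, a basic helix-loop-helix protein, Lmo2, a LIM-domain bridge that does not bind DNA itself, and Gata2, a zinc-finger protein, assemble with the adaptor Ldb1 on shared sites where Runx1 and the ETS factors Erg and Fli1 also bind. Gfi1b represses genes through the histone demethylase Kdm1a. Meis1 is a homeodomain partner of Hox and Pbx proteins, Hlf is a basic leucine zipper factor of the PAR family, and Mecom encodes the zinc-finger protein Evi1 and a longer form with a PR domain.

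Values of the gated libraries were read as RPKM, that is, reads per kilobase of transcript scaled to a common depth. No label names this unit, which was inferred from the values. On this reading, levels of different genes can be set side by side. Steps between low values put the depth at 65.7M to 85.2M reads for the FSC-A High libraries and 69.4M to 98.2M reads for the FSC-A Low ones. The genes of the sort were present in all gated libraries, with lowest values of 17.9 RPKM for Kit, 11.2 RPKM for Ly6a (Sca1) and 2.83 RPKM for Slamf1 (CD150), and Cd48 stayed at or below 3.32 RPKM. A list of 7 HSC markers, Cd48 included, had 2 genes called lower in FSC-A High, Kit among them, and none called higher. However, Ly6a (27.4 ± 12.6 against 12.8 ± 1.59 RPKM) and Procr (28.1 ± 6.17 against 21.5 ± 0.928 RPKM) averaged higher in FSC-A High. Both were not called. None of 6 lymphoid markers reached 1 RPKM in a gated library. Markers of other types were present to varying degrees, and their part in the differences below was not tested. The summed level of 9 erythroid markers was 286 to 655 RPKM in FSC-A High and 294 to 349.7 RPKM in FSC-A Low. Most of it came from Car2 and Hbb-bt, the latter called higher (151 ± 56 against 69.2 ± 14.3 RPKM). Car2 averaged 259.6 ± 111 against 229 ± 29.6 RPKM and was not called. Of the 9, 5 stayed below 1 RPKM. Among these, Hbb-bs, Hba-a1 and Hba-a2 averaged lower in FSC-A High. The summed level of 8 granulocyte and monocyte markers was 282 to 411 RPKM in FSC-A High and 266 to 275 RPKM in FSC-A Low. Of these, 3 stayed below 1 RPKM. Most of the sum came from Prtn3 and Lyz2, the latter called higher (232 ± 40.5 against 163 ± 0.614 RPKM). Prtn3 averaged 120.1 against 91.4 RPKM and was not called. Csf3r (4.12 ± 1.18 against 9.45 ± 3.85 RPKM) and Mpo (4.73 ± 2.67 against 8.3 ± 4.87 RPKM) averaged lower in FSC-A High. Neither was called. The 7 megakaryocyte markers summed to 69.7 to 103 RPKM in FSC-A High and 52.4 to 68.4 RPKM in FSC-A Low, mostly from Gp9 and Pf4, with Gp6 at 0 and none called. While Gp9, Pf4 and Ppbp averaged higher in FSC-A High, the rest averaged lower. These were Itga2b (3.13 ± 1.5 against 4.96 ± 1.66 RPKM), Gp1bb (4.23 ± 3.22 against 7.37 ± 1.96 RPKM) and Itgb3 (0.123 ± 0.118 against 0.519 ± 0.778 RPKM). The 5 macrophage markers summed to 13.7 to 28.4 and 10.2 to 16.1 RPKM, and the 5 hepatocyte markers to 56.3 to 66.9 and 50.8 to 74.3 RPKM, in FSC-A High and FSC-A Low, with none called. The gates differed in a list of 9 cell cycle genes, whose summed level was 1187 to 1393 RPKM in FSC-A High and 106 to 126 RPKM in FSC-A Low. The part of cell cycle state in the differences below was not tested. The WT HSC library 4 stood apart from the other WT HSC libraries: ribosomal Rn45s took 15.2% of its reads, against 3.06% to 5.26%, and 11384 genes had a read, against 12909 to 13368.

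Most of the factors were lower in FSC-A High. Of the 10, 7 fell at a Benjamini-Hochberg adjusted p below 0.05 (limma on log2(RPKM + 1), adjusted over 10619 genes), none rose and 3 did not pass. Over all genes tested, 11.7% were called lower and 15.6% higher, 27.3% in all. None of the 10 was higher at an unadjusted p below 0.05 either. The genes that fell were Mecom, Erg, Tal1, Hlf, Gata2, Fli1 and Meis1, with log2 differences between -1.39 and -0.67. Runx1 did not pass, and neither did Lmo2 and Gfi1b. The median log2 difference of the 10 genes was -0.89, against -0.04 over all genes tested. In 8 of them every FSC-A High library lay below every FSC-A Low library, a pattern that 16.0% of all genes tested showed. These are pools of cells, and the values are relative to each library's total. Fewer cells expressing a factor, less of its RNA per cell and more other RNA per cell cannot be told apart.

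**Figure D1:**
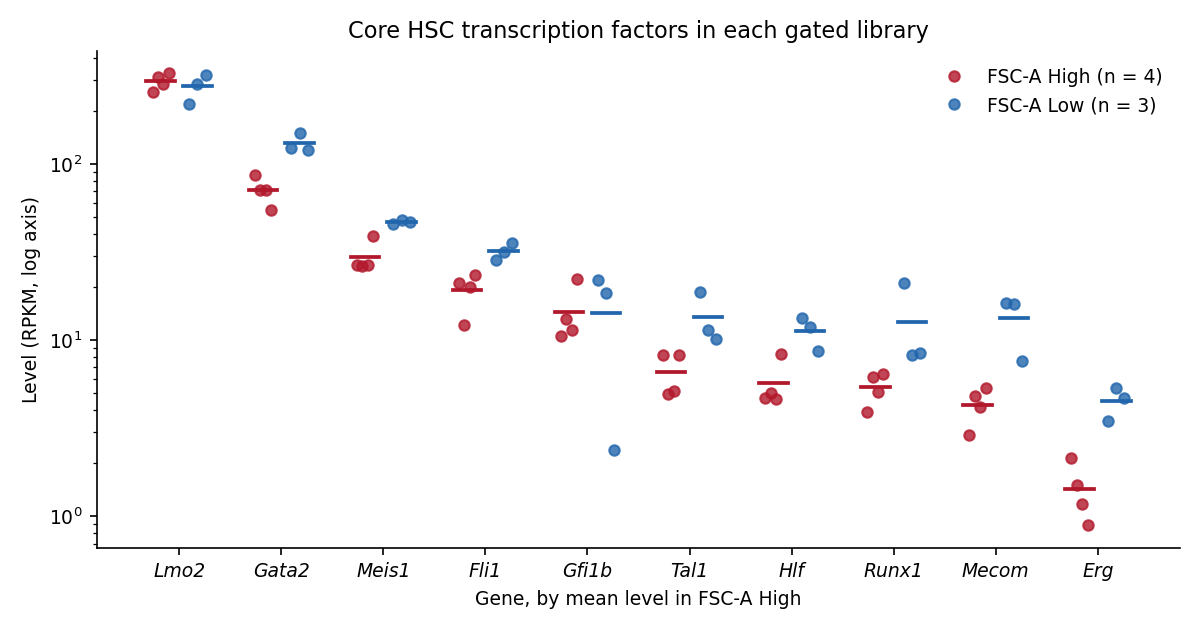
Level of each factor in RPKM on a log axis, with 1 point per library and a bar at the group mean, for FSC-A High (red, n = 4) and FSC-A Low (blue, n = 3). The red points lie below the blue ones in 8 genes, while those of Lmo2 and Gfi1b overlap.

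The zinc-finger gene Mecom (chromosome 3, 29951296 to 30509759 on GRCm38.p6, the build of all gene positions here, minus strand) had the most negative difference on the log2(RPKM + 1) scale, while by the ratio of means Erg (0.318) and Mecom (0.323) were about equal. Without FSC-A High 1 or FSC-A Low 1 the log2 difference of Erg (-1.32 and -1.33) exceeded that of Mecom (-1.25 and -1.22). It stood at 2.91, 4.82, 4.16 and 5.34 RPKM in FSC-A High and at 16.3, 16.1 and 7.64 RPKM in FSC-A Low. The groups did not overlap, although FSC-A Low 3 lay closer to the FSC-A High libraries than to the other two of its own gate. The means were 4.31 ± 1.05 (SD, n = 4) and 13.3 ± 4.92 RPKM (SD, n = 3), and the log2 difference was -1.39 (SE 0.33, limma adjusted p = 0.00781). Only 3.42% of the genes tested had a more negative difference. The files list a second Mecom transcript, NM_021442, at 0.846 ± 0.366 RPKM in FSC-A High and 3.41 ± 1.14 RPKM in FSC-A Low, that is, at 12.7% to 33.4% of the entry used, NM_007963. Both entries were thus lower in FSC-A High.

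Gata2 (chromosome 6, 88193891 to 88207032, plus strand), required for the formation and upkeep of HSCs, had the smallest p of the 10. Its level was 86.8, 70.9, 71.3 and 55 RPKM in FSC-A High and 123, 149.7 and 119 RPKM in FSC-A Low. The groups were well apart, with FSC-A High 4 the lowest of all. The means were 71 ± 13 (SD, n = 4) and 131 ± 16.7 RPKM (SD, n = 3), and the gates differed by -0.88 on the log2 scale (SE 0.17, limma adjusted p = 0.00262). It was the second most abundant factor in every gated library.

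The start regions of Mecom and Gata2, the pair of factors with the smallest adjusted p, are shown here because both genes start at separate sites, and that of Gfi1b because its level did not pass the test. Each window runs from 250 bases before to 50 after a start in the RefSeq table for GRCm38.p6, 5′ to 3′ on the gene's strand. Capitals mark GATAA, the core bound by GATA factors, or GGAAG, a core of ETS sites, on either strand.
Mecom distal start, chr3:30509710-30510009, minus strand: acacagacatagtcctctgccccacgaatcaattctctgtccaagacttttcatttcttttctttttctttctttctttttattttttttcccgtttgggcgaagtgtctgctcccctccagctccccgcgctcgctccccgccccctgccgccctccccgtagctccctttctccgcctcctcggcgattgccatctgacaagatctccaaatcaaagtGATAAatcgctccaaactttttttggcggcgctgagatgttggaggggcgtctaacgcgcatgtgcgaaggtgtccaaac
Mecom proximal start, chr3:30013155-30013454, minus strand: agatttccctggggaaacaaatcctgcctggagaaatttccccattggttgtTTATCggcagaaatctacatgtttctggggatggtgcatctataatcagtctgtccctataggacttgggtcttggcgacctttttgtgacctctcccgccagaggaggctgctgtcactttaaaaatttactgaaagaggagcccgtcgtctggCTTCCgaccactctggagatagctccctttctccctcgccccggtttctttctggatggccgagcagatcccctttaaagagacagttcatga
Gata2 distal start, chr6:88193641-88193940, plus strand: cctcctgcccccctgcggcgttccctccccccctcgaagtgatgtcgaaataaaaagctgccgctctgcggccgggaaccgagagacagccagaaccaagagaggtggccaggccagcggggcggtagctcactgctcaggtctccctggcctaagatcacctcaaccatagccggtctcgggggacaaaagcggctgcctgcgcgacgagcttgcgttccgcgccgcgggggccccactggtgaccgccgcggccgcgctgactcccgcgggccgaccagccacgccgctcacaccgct
Gata2 proximal start, chr6:88198414-88198713, plus strand: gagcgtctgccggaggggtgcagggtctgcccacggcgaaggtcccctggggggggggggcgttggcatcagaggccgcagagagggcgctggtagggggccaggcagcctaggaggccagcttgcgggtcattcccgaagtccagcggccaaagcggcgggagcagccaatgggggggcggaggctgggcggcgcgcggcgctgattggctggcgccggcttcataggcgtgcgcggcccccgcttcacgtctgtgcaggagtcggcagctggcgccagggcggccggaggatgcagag
Gfi1b start, chr2:28621933-28622232, minus strand: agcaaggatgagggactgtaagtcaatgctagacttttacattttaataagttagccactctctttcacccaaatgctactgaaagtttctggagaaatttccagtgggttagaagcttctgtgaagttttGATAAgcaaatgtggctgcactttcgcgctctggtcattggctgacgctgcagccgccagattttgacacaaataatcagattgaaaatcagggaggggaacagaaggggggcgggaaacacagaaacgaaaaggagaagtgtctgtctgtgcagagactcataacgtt

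Both Mecom windows and the Gfi1b window hold 1 GATAA match each, and the proximal Mecom window also holds 1 GGAAG match. Neither Gata2 window holds either motif. The promoter table gave 14 windows for 8 of the 10 factors, and Fli1 and Lmo2 were not in it. Of these 14 windows, 5 held GATAA, against 25.4% of all 32851 windows, and 7 held GGAAG, against 71.4%. The E-box CANNTG, which Tal1 binds with partners, was in 8 of 14 windows (72.3% of all), and TGNGGT, a RUNX core, in 6 (45.8% of all). TGACAG, read by Meis1 and its relatives, was in 2 (19.2% of all), and TTANNTAA, a PAR family core, in 2 (6% of all). Both strands were searched, and no matches of different motifs overlapped in these windows. A match is a description of the letters and not a site that was shown to be bound.

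Both ETS factors fell. Erg (chromosome 16, 95359169 to 95586600, minus strand), which HSCs need to sustain themselves, stood at 2.14, 1.5, 1.18 and 0.89 RPKM in FSC-A High and at 3.46, 5.33 and 4.67 RPKM in FSC-A Low. It was the least abundant of the factors in every gated library but FSC-A Low 3, and the gates did not overlap. The log2 difference was -1.19 (SE 0.32, limma adjusted p = 0.0162). This scale understates the change of so low a gene: the mean in FSC-A High was 0.318 times that in FSC-A Low. Fli1 (chromosome 9, 32422204 to 32543432, minus strand), the related factor with roles in HSCs, megakaryocytes and endothelium, stood at 21, 12.2, 20.1 and 23.3 RPKM in FSC-A High and at 28.5, 31.8 and 35.6 RPKM in FSC-A Low. All FSC-A High libraries were lower, with FSC-A High 2 the lowest, and the log2 difference was -0.74 (SE 0.24, limma adjusted p = 0.0353). Within a library the ratio of Fli1 to Erg was 9.82, 8.13, 17 and 26.2 in FSC-A High and 8.25, 5.97 and 7.62 in FSC-A Low, so it overlapped between the gates. Erg and Fli1 are also endothelial factors. The summed level of 5 endothelial markers was 3.12 to 7.93 RPKM in FSC-A High and 9.72 to 16.7 RPKM in FSC-A Low. Pecam1 was called lower in FSC-A High (3.96 ± 2.63 against 12.2 ± 2.99 RPKM), Kdr and Stab2 reached at most 1.08 and 1.09 RPKM in any gated library, and Cdh5 and Lyve1 stayed below 1 RPKM. The part of endothelial RNA in the Erg and Fli1 differences was not tested.

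Of Tal1 and Lmo2, which sit in the same complex, Tal1 passed the test and Lmo2 did not, and whether their differences differ was not tested. Tal1 (chromosome 4, 115056426 to 115071755, plus strand), needed for blood formation, stood at 8.19, 4.93, 5.14 and 8.25 RPKM in FSC-A High and at 18.8, 11.4 and 10.1 RPKM in FSC-A Low. FSC-A Low 1 was far above the other libraries, and the gates did not overlap. The log2 difference was -0.91 (SE 0.31, limma adjusted p = 0.0438). Lmo2 (chromosome 2, 103957903 to 103981878, plus strand) stood at 256, 311, 285 and 326 RPKM in FSC-A High and at 219, 284 and 321 RPKM in FSC-A Low. These ranges overlapped almost fully. The log2 difference was 0.11 with a 95% interval of -0.21 to 0.44 (limma adjusted p = 0.615), which does not show that the level was equal in both gates. Lmo2 accounted for 60.6% to 68.2% of the summed RPKM of the 10 factors in FSC-A High and for 42.8% to 56.8% in FSC-A Low. The other 9 factors together summed to 145 to 169 RPKM in FSC-A High and to 244 to 301 RPKM in FSC-A Low.

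The homeodomain factor Meis1 and the PAR factor Hlf both fell. Meis1 (chromosome 11, 18880428 to 19019651, minus strand), a regulator of HSC quiescence, stood at 26.6, 26.4, 26.7 and 38.9 RPKM in FSC-A High and at 45.8, 48 and 47 RPKM in FSC-A Low. Its FSC-A Low libraries were the tightest of any factor, with a coefficient of variation of 2.29%, and FSC-A High 4 stood apart from the other FSC-A High libraries. The log2 difference was -0.67 (SE 0.19, limma adjusted p = 0.0216). Hlf (chromosome 11, 90336535 to 90390917, minus strand), whose expression marks HSCs from the embryo onwards, stood at 4.68, 5.03, 4.64 and 8.34 RPKM in FSC-A High and at 13.3, 11.9 and 8.71 RPKM in FSC-A Low. The highest FSC-A High library, again number 4, came close to the lowest FSC-A Low library. The log2 difference was -0.90 (SE 0.30, limma adjusted p = 0.0392).

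Runx1 (chromosome 16, 92601466 to 92826074, minus strand), which drives the emergence of HSCs from endothelium, stood at 3.93, 6.21, 5.06 and 6.4 RPKM in FSC-A High and at 21.2, 8.25 and 8.5 RPKM in FSC-A Low. All FSC-A High libraries were lower, but FSC-A Low 1 was well above the other FSC-A Low libraries. The log2 difference of -0.98 (SE 0.35, unadjusted 95% interval -1.74 to -0.23) missed the threshold at a limma adjusted p of 0.0523. Without FSC-A Low 1 it was -0.57 (adjusted p = 0.24). The files list 4 Runx1 transcripts. Those not used stood at 72.2% to 98.3% of the entry used in each library, and all were lower on average in FSC-A High. They share exons, and how shared reads were counted is not given in the sources used here, so use of the distal and the proximal Runx1 promoter cannot be told apart.

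Gfi1b (chromosome 2, 28609450 to 28621982, minus strand), a repressor needed for red cells and platelets that also restrains HSC proliferation, varied most among replicates of FSC-A Low and of WT HSC. It stood at 10.6, 13.2, 11.4 and 22.3 RPKM in FSC-A High and at 21.8, 18.4 and 2.37 RPKM in FSC-A Low. FSC-A Low 3 was the lowest and FSC-A High 4 the highest, so the ranges overlapped. The log2 difference was 0.37 with a 95% interval of -0.79 to 1.54 (limma adjusted p = 0.652). Without FSC-A Low 3 it was -0.51 (adjusted p = 0.265), so the sign rested on that library. The coefficient of variation within FSC-A Low was 73.1%, against 2.29% to 58.5% for the other factors. Within FSC-A High it was 37.3%, just below the 37.5% of Erg.

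The differences moved with transcript length, whose part in them was not tested beyond removal of the trend. Across 10460 genes the log2 difference went down with transcript length (Spearman's rho -0.425, taken over genes, which do not count as replicates). The median log2 difference was 0.51 in the shortest of 5 equal bins of genes by transcript length and -0.39 in the longest. The 8 factors below zero have transcripts of 3249 to 5861 nt and all lie in the 2 longest bins, where 17.7% and 19% of genes were called lower. Lmo2 (1654 nt) and Gfi1b (1681 nt) lie in the second shortest bin, where the median was 0.20. Once each library's trend over length and GC content was removed, Mecom kept its call at -1.11 (adjusted p = 0.0256), the only one of the 10 to do so, against 7.77% of all genes called lower. Erg became -0.94 (adjusted p = 0.0678), Runx1 -0.62 (0.203), Fli1 -0.58 (0.0829), Hlf -0.58 (0.149), Tal1 -0.54 (0.216), Meis1 -0.47 (0.081) and Gata2 -0.37 (0.133), all still negative. Lmo2 turned to -0.14 (0.535).

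**Figure D2:**
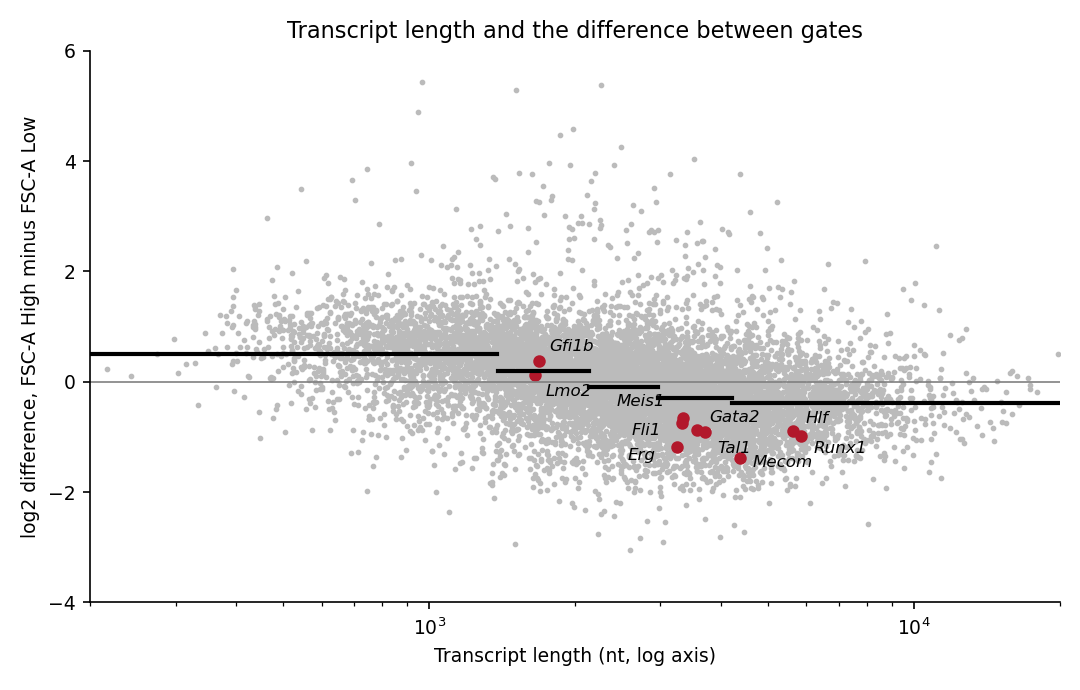
Log2 difference between FSC-A High and FSC-A Low against transcript length on a log axis, with 1 point per gene tested (grey) and the 10 factors in red. Black bars give the median in each of 5 equal bins of genes by length, at 0.51 for the shortest and -0.39 for the longest, and genes outside the axes are not drawn.

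Other choices also moved the count of factors called lower. Without a filter on low values 4 were called, Mecom, Gata2, Meis1 and Erg, against 5.36% of all genes. With the trend over expression level removed, Lmo2 was called lower at -0.41 (adjusted p = 0.0403), while Tal1 (-0.78, 0.077), Hlf (-0.75, 0.0789) and Erg (-0.94, 0.0554) lost their calls. Leaving out 1 library gave 3 factors without FSC-A High 2, where 896 of all genes were called lower, 3 without FSC-A High 3 (905 of all genes), 4 without FSC-A Low 1 (868) and 3 without FSC-A Low 2 (1063). It gave 6 or 7 without any other library (981 to 1166 of all genes). Mecom was called lower under each of its 20 alternatives of scaling, filter, pseudocount, trend, weights, block, transcript choice and left-out library, with adjusted p between 0.00295 and 0.036. Gata2 was called in 19 of 20, losing its call with the length and GC trend removed. Runx1 was called in 7 of 20. Leaving out a library ended the call of Hlf for FSC-A High 1, 2 or 3 and FSC-A Low 1 or 2 (adjusted p 0.0765 to 0.127) and that of Tal1 for FSC-A High 2 or 3 and FSC-A Low 1 or 2 (0.0613 to 0.181). It ended that of Fli1 for FSC-A High 2 or 3 and any FSC-A Low library (0.0518 to 0.106), that of Meis1 for FSC-A High 2 or 3 and FSC-A Low 2 or 3 (0.0527 to 0.0599) and that of Erg for FSC-A Low 2 (0.0533). Runx1 passed without FSC-A Low 2 (0.0386) or FSC-A Low 3 (0.0439). It also passed when scaled by upper quartiles (0.0391), by each library's sum of RPKM over genes (0.018) or by TMM (0.0485). The same held with a filter at 5 RPKM (0.038) and with values summed over transcripts (0.0346).

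**Figure D3:**
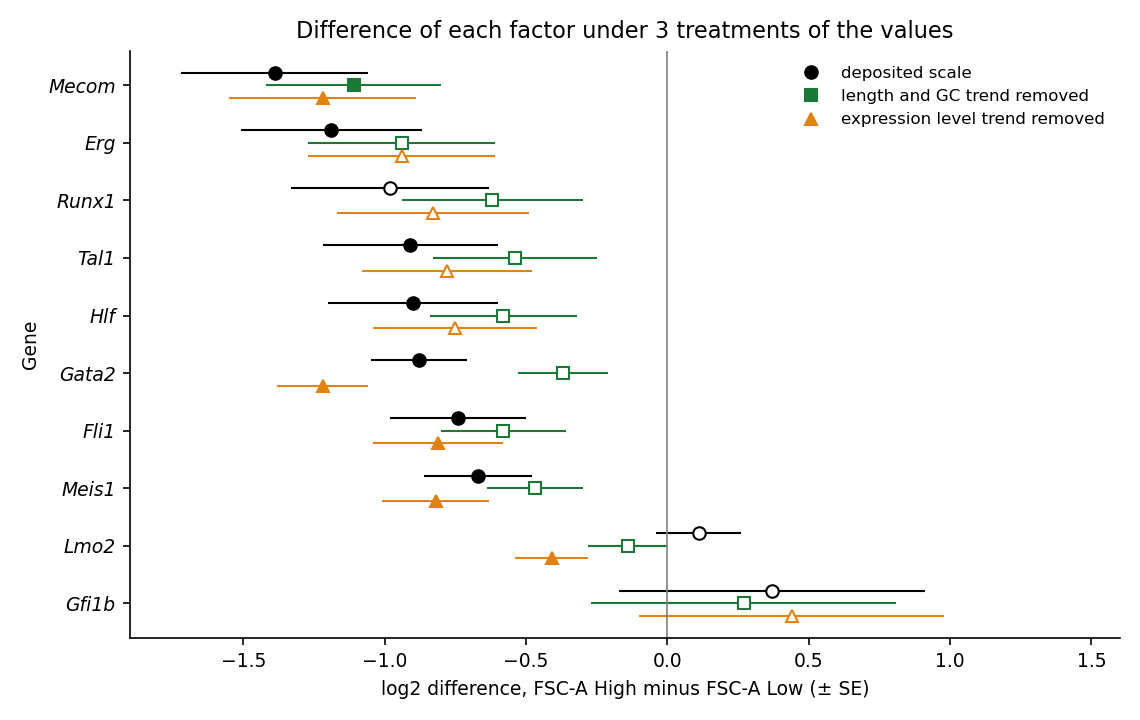
Log2 difference of each factor between FSC-A High and FSC-A Low with its standard error, on the deposited scale and after removal of a trend, either that over length and GC content or that over level. Filled symbols have an adjusted p below 0.05, and after removal of the length and GC trend only Mecom is filled.

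In unfractionated HSCs the factors covered a range from Lmo2 to Erg of more than an order of magnitude. These files hold reads divided by a factor per library, from which 21307178 to 30889443 reads per library were recovered and expressed as CPM (reads scaled to a common library total) per kilobase of transcript. The level of Lmo2 was 735, 572, 462 and 522 CPM per kilobase in WT HSC 1 to 4, a mean of 573 ± 117 (SD, n = 4). It was 8 times the next factor and the highest in all 4 libraries. Meis1 was second at 91, 65.7, 73.7 and 55.7 CPM per kilobase. That place depended on the length used: with the mean length of a gene's annotated transcripts, Hlf averaged 110.1, Gata2 96.1 and Meis1 68.5 CPM per kilobase, which put Meis1 behind both. At the bottom, Runx1 stood at 17.9, 14.8, 14.8 and 10.1 and Erg at 9.23, 5.76, 8.12 and 10.1 CPM per kilobase. The ranges of this last pair did not overlap, although the value of WT HSC 4 was 10.1 for both after rounding, and Runx1 was higher in all 4 libraries.

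The middle of the order was less firm. Meis1 and Gata2 overlapped, with Meis1 higher in 3 of 4 libraries. Gata2 varied from 31.9 to 76.8 CPM per kilobase, at 66, 31.9, 34 and 76.8, so that WT HSC 1 and 4 were high and WT HSC 2 and 3 low. Its mean of 52.2 ± 22.6 (SD, n = 4) put it in the third place. Gata2 and Hlf, next at 48.9, 45, 45.2 and 24.7 CPM per kilobase, were in this order in 2 of 4 libraries only and do not differ beyond their spread. The fifth place of Gfi1b rests on values of 37.1, 35.9, 64.9 and 0.119 CPM per kilobase. WT HSC 4 held 6 reads of Gfi1b, where the other libraries held 1926, 1287 and 2969. Fli1 at 31.5 ± 6.3, Mecom at 24.8 ± 5.96, Tal1 at 19.1 ± 2.87 and Runx1 at 14.4 ± 3.21 CPM per kilobase (SD, n = 4 each) followed in the same order in all 4 libraries. The ranges of these neighbours overlapped between libraries, so their order rests on comparison within a library. It also depended on the length used. With the mean length of annotated transcripts, Runx1 (29.6) stood above Tal1 (24.6 CPM per kilobase). Without WT HSC 4, Hlf (46.4), Gfi1b (46) and Gata2 (44 CPM per kilobase) followed Meis1 in this order, and the other 7 factors kept theirs.

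**Figure D4:**
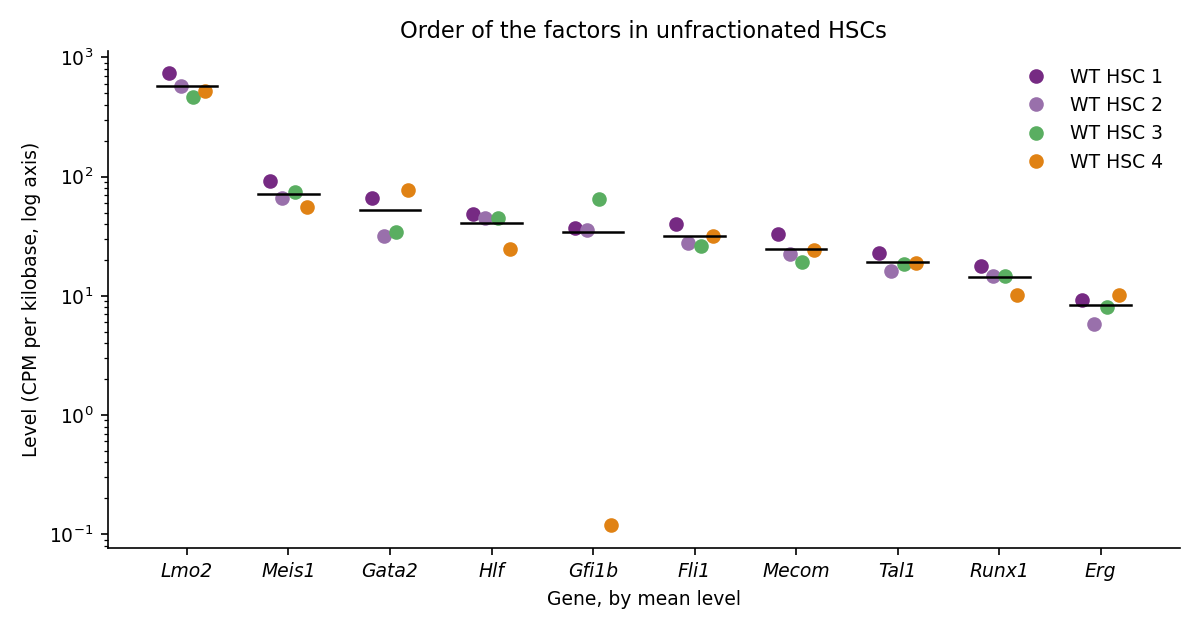
Level of each factor in the 4 unfractionated libraries in CPM per kilobase of transcript on a log axis, with 1 point per library and a bar at the mean. Lmo2 is highest and Erg lowest by mean, and the Gfi1b point of WT HSC 4 lies at 0.119 while the other 3 lie between 35.9 and 64.9.

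WT HSC 4 differed from the other libraries in several other genes beside these. The mitotic genes of the cell cycle list were low in it, with 29.4 CPM of Ube2c against 165 to 327 CPM and 10.8 CPM of Mki67 against 173 to 288 CPM, but the replication genes Pcna (264 against 263 to 423 CPM) and Mcm5 (221 against 193 to 313 CPM) lay within the range of the others. Kit was high, at 537 CPM against 192 to 252 CPM. The erythroid factor gene Klf1 had no read in it, against 0.809 to 4.12 CPM, and of the megakaryocyte genes Itga2b was high at 69.7 CPM against 21.5 to 39.5 CPM, while Itgb3 (0.0334 against 2.02 to 14.1 CPM) and Gp9 (95.2 against 107 to 149 CPM) were low. The part of these in its Gata2, Hlf and Gfi1b levels was not tested.

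The gated libraries shared the top and the bottom of this order. Lmo2 was first in all 11 libraries. Erg was last by mean in each of the 3 groups. Between FSC-A High and FSC-A Low, 8 of the 10 factors held the same rank by mean, and only Mecom (ninth in FSC-A High, seventh in FSC-A Low) and Hlf (seventh in FSC-A High, ninth in FSC-A Low) changed places around Runx1. This change lay within the spread: in FSC-A Low, Mecom averaged 13.3 ± 4.92, Runx1 12.6 ± 7.4 and Hlf 11.3 ± 2.37 RPKM. Ranks also varied by library. In FSC-A Low 1 to 3, Mecom ranked 8, 6 and 8, Hlf 9, 7 and 6, and Gfi1b 5, 5 and 10. Hlf stood above Fli1 in the mean of WT HSC and below it in both gates. The units differ between the gated and the unfractionated files, so only ranks within each are given.

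For each factor the gene with the most similar course over the 7 gated libraries was found among 5805 genes, by the root mean square difference of centred log2 values. The closest pair was Hlf with Sfxn3, a mitochondrial carrier gene, at 0.063, followed by Gata2 with Srm, spermidine synthase, at 0.0743, Lmo2 with Usp39 at 0.0774, Fli1 with Fads1 at 0.089 and Meis1 with Pak2 at 0.0929. Erg was nearest to Ubtd2 (0.124), Tal1 to Copa (0.13), Mecom to Tbxas1 (0.167) and Runx1 to Wdr48 (0.186). The nearest gene to Gfi1b, Nmt1, was at 0.45. Among the factors themselves the closest were Gata2 and Erg at 0.197 and Hlf and Meis1 at 0.208. This is a description over 7 libraries, and how close a match other genes have was not measured.

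The lists of genes that work with the factors are read beside all genes tested, of which 11.7% were called lower and 15.6% higher, with a median log2 difference of -0.04. Of 15 listed partners in the Ldb1 complex, 14 were tested, 4 fell, none rose and 10 did not pass, with a median log2 difference of -0.27. Tcf3, the E-protein that pairs with Tal1, averaged 47.2 ± 8.57 RPKM in FSC-A High (SD, n = 4) and 135 ± 27.6 RPKM in FSC-A Low (SD, n = 3), a log2 difference of -1.49. The GATA cofactor gene Zfpm1 averaged 8.29 ± 3.85 and 29.9 ± 4.37 RPKM (-1.85), and Ssbp4, of the family that stabilises Ldb1, 86.7 ± 21.6 and 157 ± 14.1 RPKM (-0.88). The limma adjusted p of these was at most 0.0047. Ldb1 itself, named after its value was seen, averaged 11.5 ± 2.07 RPKM in FSC-A High and 10.7 ± 1.76 RPKM in FSC-A Low and did not pass (adjusted p = 0.834). The count of 4 lower genes stayed at 4 after removal of length and GC trends and was 3 to 5 with 1 library left out, where 1 gene rose without FSC-A High 1.

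Of 13 RUNX and ETS relatives tested, 5 fell and 8 did not pass (median -0.50), with 2 called lower after removal of length and GC trends and 3 without a filter on low values. Leaving out any 1 library also lowered this count, to 1 without FSC-A High 3, 3 without FSC-A Low 3 and 2 without each of the others. Cbfb, the subunit that Runx1 needs for stable DNA binding, averaged 24.2 ± 3.37 RPKM in FSC-A High and 61.4 ± 14.8 RPKM in FSC-A Low (log2 difference -1.29, limma adjusted p = 0.000809). The ETS genes Elf1 (10.1 ± 3.36 against 21 ± 5.79 RPKM, adjusted p = 0.0209) and Elk4 (1.51 ± 0.499 against 4.14 ± 1.26 RPKM, 0.0351) fell as well. Of 13 Hox and TALE partners of Meis1, 11 were tested, 2 fell, 1 rose and 8 did not pass (median 0.09). Hoxa10 fell (-0.88, limma adjusted p = 0.0126) and so did the TALE repressor gene Tgif2 (-0.76, 0.0397), whereas Pbx4 rose at 17.5 ± 2.19 against 7.5 ± 5.24 RPKM (1.38, 0.0282). Pbx4 and Tgif2 did not pass with the length and GC trend removed. No gene of this list was called higher without FSC-A High 1, 3 or 4 or FSC-A Low 1, and 2 were without FSC-A Low 3. None was called lower without FSC-A Low 1, and 1 was without FSC-A High 2, 3 or 4 or FSC-A Low 2 or 3.

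Of 12 co-repressor genes tested, 3 fell, 1 rose and 8 did not pass (median -0.49). Ctbp1, which Zfpm1 and Evi1 recruit, averaged 61.3 ± 10.7 RPKM in FSC-A High and 144 ± 33.3 RPKM in FSC-A Low (-1.21, limma adjusted p = 0.000577), and Hdac2 (-0.64, 0.0182) and Ncor1 (-1.32, 0.0224) fell. The riser was Hdac1 (0.57, 0.0286), named after its value was seen. Without a filter on low values only 1 gene of this list fell and none rose, and with the length and GC trend removed 3 fell and none rose. With 1 library left out, 1 fell without FSC-A High 2 or FSC-A Low 3, 2 or 3 fell otherwise, and none rose without FSC-A High 2 or 3 or FSC-A Low 1 or 2. Kdm1a, the demethylase through which Gfi1b acts, averaged 5.51 ± 3.1 and 8.49 ± 8.28 RPKM and did not pass (0.707, also named after its value was seen).

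Of 22 other HSC regulators, 20 were tested, 9 fell, none rose and 11 did not pass, with a median of -0.70. With the length and GC trend removed 8 fell and 1 rose, and 6 to 9 fell with 1 library left out. Myb, a factor of progenitor growth, averaged 35 ± 5 RPKM in FSC-A High and 79.9 ± 12.8 RPKM in FSC-A Low (-1.16, limma adjusted p = 0.000571), Mycn 94.9 ± 9 and 180.1 ± 30.3 RPKM (-0.91, 0.000986) and Bcl11a, which silences fetal globin genes in humans, 78.9 ± 23.3 and 243 ± 108 RPKM (-1.57, 0.00154). Chosen after their values were seen, the PAR family genes Dbp (log2 difference -1.47, limma adjusted p = 0.00465) and Tef (-1.01, 0.0341) fell too. So did Nfil3, a repressor that binds the same sites (-1.92, 0.00447).

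Of 20 genes known as targets of these factors, 18 were tested, 7 fell, none rose and 11 did not pass (median -0.59), and 5 fell with the length and GC trend removed. With 1 library left out 5 to 7 fell, and 1 rose without FSC-A High 1 or FSC-A Low 2 or 3. Kit, the stem cell factor receptor, averaged 20.9 ± 3.37 RPKM in FSC-A High and 54.7 ± 6.22 RPKM in FSC-A Low (-1.35, limma adjusted p = 0.000331), and Tek, the angiopoietin receptor, 3.85 ± 1.57 and 13.3 ± 4.51 RPKM (-1.57, 0.00466). Of 12 genes listed as lineage factors, not all of them confined to 1 lineage, only 6 passed the filter on low values. None of these 6 was called by limma (1 was higher and 1 lower at an unadjusted p below 0.05). Without FSC-A High 1, 1 of them rose, and without FSC-A Low 1, 1 fell. The members with the smallest p were Gata1, at 4.05 ± 2.22 RPKM in FSC-A High and 1.2 ± 0.507 RPKM in FSC-A Low (1.10, adjusted p = 0.0625), and Gfi1, at 15.6 ± 3.68 and 25.9 ± 7.61 RPKM (-0.68, 0.0708). In the lists where no gene rose by limma, those higher at an unadjusted p below 0.05 numbered 1 for the Ldb1 complex, 0 for the RUNX and ETS relatives, 1 for the other HSC regulators and 3 for the target genes.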

How the data were processed

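RNA from 11 libraries was analysed. Values in the authors' gated files, listed by RefSeq transcript, were read as RPKM. No label names this unit, which was inferred from sums of value times length in kilobases of 1015063 to 1034289 per library. The deposited WT HSC files give a signal per gene, which became whole reads within 0.01 for 100% of values after multiplication by 1 factor per library. STAR, DESeq2 and the build mm10 are named, without versions or roles, per the submitters' processing notes. Groups came from the sample titles.

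For genes with several transcripts, the entry with the highest average in the 7 gated libraries was kept. Lengths came from GENCODE M21 transcripts, and symbols and coordinates from NCBI's GRCm38 table. The gates were tested by limma 3.58.1 (R 4.3.3, moderated with a trend) on log2(RPKM + 1), keeping genes that reached 1 RPKM in 3 or more libraries. The threshold was an adjusted p of 0.05 (Benjamini-Hochberg). The limma step was checked on simulated data, where it recovered 59% of log2 changes of size 1 and 99% of size 2. Of its 169 calls there, 11 were false. No count test was run, since the WT HSC reads form a single group. The trends over length and GC content or over level were removed with splines of 5 degrees of freedom. TMM factors came from edgeR 4.0.16. Tables were made with Python 3.11.15, pandas 2.3.3 and numpy 2.4.6, and plots with matplotlib 3.10.9.

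From each list up to 3 called genes with the smallest p were named, or 2 where none was called; 1 gene so chosen is not reported here. Some genes, such as Gata1, Gfi1, Spi1, Nfe2 and Etv6, stand in 2 or more lists. The 10 factors, the lists and the alternatives were chosen with earlier results of these data known. Smart-seq2 does not mark strand, and antisense genes overlap exons of Mecom, Meis1 and Runx1 in GENCODE M21, so their reads cannot be told apart.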

Additional observations from a re-analysis of the deposited data

Results flagged for a closer look

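Within groups of 4 libraries, 20 sets of values (10 factors in FSC-A High and in WT HSC) were examined for a library far from the rest on a log2(value + 1) scale, by the gap to its nearest neighbour as a share of the whole range, with 0.829 as Dixon's critical value. Chance alone marks about 1 in 20 such sets, and 4 were marked. Meis1 in FSC-A High had a share of 0.978, with 38.9 RPKM in FSC-A High 4 and 26.4 to 26.7 RPKM in the others. Hlf in FSC-A High had a share of 0.87, with 8.34 RPKM in the same library and 4.64 to 5.03 RPKM in the others. Hlf in WT HSC had a share of 0.876, with 24.7 CPM per kilobase in WT HSC 4 and 45 to 48.9 in the others. Gfi1b in WT HSC had a share of 0.871, with 6 reads in WT HSC 4 and 1287 to 2969 in the others. Both marked libraries are number 4 of their group, which in the labels is only a name.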

How the results depend on the processing

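The count of factors called lower was 7 on the deposited scale, 4 without a filter on low values, 1 after removal of length and GC trends, and 2 at an adjusted p below 0.01. With scaling by upper quartiles, RPKM sums or TMM it was 8, Runx1 included, against 1464, 2272 and 1281 of all genes called lower. Leaving out 1 library gave 3 to 7. Scaling by each library's sum of RPKM over genes, which is not its read total, gave 978 of all genes called higher and 2272 lower. These counts were 1047 and 813 without length and GC trends and 1064 and 545 at an adjusted p below 0.01, against 1657 and 1245. No factor was called higher by limma under any alternative run. Scaling by RPKM sums moved the median of all genes from -0.04 to -0.30.

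Lmo2 changed sign when scaled by RPKM sums (-0.20) and after removal of the trends over length and GC (-0.14) or level (-0.41), and ranged from -0.04 to 0.23 over left-out libraries. Gfi1b ranged from -0.51 to 0.87 over left-out libraries. The other 8 factors stayed negative under every alternative run. With the mean length of annotated transcripts in place of the chosen one, 6 of the 10 factors kept their rank in WT HSC. Hlf was then second, Meis1 behind Gata2, and Runx1 above Tal1. Leaving out 1 WT HSC library kept the rank of 7 to 10 factors (7 without WT HSC 3 or WT HSC 4). Leaving Rn45s out of the library totals, an alternative chosen after seeing the data, kept all 10. Beyond what leaving out a library or testing fewer or more genes explains by construction, the cause was not tested.

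No shared deviation of same-numbered libraries was seen: their deviations correlated at -0.03, 0.06 and 0.00. Those of different-numbered libraries correlated at -0.09 to 0.09. Such values cannot show that the libraries were unpaired. With the replicate block, 6 factors and 971 of all genes were called lower and 1460 higher, and Erg, at -1.08, lost its call (adjusted p = 0.0705). The block left 2 RUNX and ETS relatives lower (5 without it), and 1 lower and none higher of the Meis1 partners.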
